A study of Rattus norvegicus with 17 samples.

Results

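The heat shock protein and cochaperone genes were followed here in hippocampal synaptosomes of adult and aged rats. Synaptosomes are pinched-off nerve terminals recovered by homogenisation and differential centrifugation, and markers of glia were detected in this fraction as well. Members were chosen by name: every probe whose gene symbol starts with Hspa, Hspb, Hspd, Hspe, Hsph, Hsp90, Dnaja, Dnajb, Dnajc, or with Cct or Bag and a digit, leaving out Hspb1. A probe was kept when its detection p-value was below 0.05 on every array of at least 1 group. Of the 22226 probes on the array 75 carried such a name, for 73 genes, and 57 probes for 57 genes passed. The Hspb prefix also caught 2 genes that are not small heat shock proteins, Hspbp1, a nucleotide exchange factor of HSP70, and Hspbap1, a protein that binds a small heat shock protein.

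Male Fischer 344 x Brown Norway (F1) rats, with no transgene or drug, were tested in the Morris water maze, and 1 Illumina RatRef-12 array was hybridised per rat. The Adult group held 5 rats of 12 months. The Intact group held 5 rats of 28 months that found the platform area as adults did, and the Impaired group held 7 rats of 28 months that performed worse. The adults lay on slide 1 and all 12 aged rats on slide 2, so that slide and age cannot be told apart. Intact and Impaired rats shared a slide.

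Molecular chaperones keep proteins folded and rescue those that are not. HSP70 proteins (Hspa genes) bind exposed hydrophobic stretches and release them on ATP turnover, DNAJ proteins deliver clients and trigger the ATP step, BAG proteins and other exchange factors reset it, HSP90 finishes the folding of kinases and receptors, small heat shock proteins hold unfolded clients, and the ring-shaped CCT chaperonin folds actin and tubulin. In nerve terminals they are known for uncoating clathrin vesicles (Hspa8 with the auxilin Dnajc6) and for keeping the release machinery folded (Dnajc5, cysteine string protein). Many of their genes respond to heat shock factor 1, which binds head-to-head and tail-to-tail repeats of the letters GAA, and those of the endoplasmic reticulum respond to the unfolded protein response through the ER stress element.

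The promoter sequences of members are shown first because the repeats they carry are the classical mark of this gene class. RefSeq promoters (build GRCr8, the 250 bases before the annotated start) matched 49 of the 57 member genes with 50 promoters. Either GAANNTTC or TTCNNGAA, which read the same on both strands and can overlap, was found in 12 of the 50 (24%), against 13.5% of all 33469 promoters in the table and 9.48% of those of genes tested on the arrays. A run of at least 3 alternating GAA and TTC units at this spacing was found in 2 member promoters (4%), Hspa8 and Hspe1, against 0.663% of all promoters. In the windows below, capitals mark the GAA and TTC letters of these matches. Hspa8 (chr8:50080414-50080513, plus strand) and Hspe1 (chr9:64084227-64084326, plus strand) are shown for their runs of 3 and 4 units, Dnajb1 (chr19:41431142-41431241, minus strand) and Hspb8 (chr12:45837208-45837307, plus strand) for single matches next to the start, and Cct5 (chr2:84313874-84313973, minus strand) and Hspb6 (chr1:94934172-94934271, plus strand) because their levels are described in detail below.
Hspa8, 100 to 1 bases before the start: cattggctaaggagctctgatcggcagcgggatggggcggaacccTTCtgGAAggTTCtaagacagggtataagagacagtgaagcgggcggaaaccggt
Hspe1, 100 to 1 bases before the start: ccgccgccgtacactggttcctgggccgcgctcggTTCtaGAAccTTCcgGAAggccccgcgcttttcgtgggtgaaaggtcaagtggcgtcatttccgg
Dnajb1, 100 to 1 bases before the start: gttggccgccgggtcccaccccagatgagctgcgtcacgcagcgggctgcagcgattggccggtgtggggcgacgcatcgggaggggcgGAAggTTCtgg
Hspb8, 100 to 1 bases before the start: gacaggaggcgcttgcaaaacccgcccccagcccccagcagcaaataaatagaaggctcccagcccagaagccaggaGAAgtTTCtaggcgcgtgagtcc
Cct5, 200 to 101 bases before the start: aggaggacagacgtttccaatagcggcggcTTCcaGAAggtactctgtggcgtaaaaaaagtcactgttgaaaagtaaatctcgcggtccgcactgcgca
Hspb6, 200 to 101 bases before the start: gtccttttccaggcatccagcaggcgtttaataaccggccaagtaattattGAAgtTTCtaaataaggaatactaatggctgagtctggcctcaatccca

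The ER stress element, CCAAT and CCACG with 9 bases of any kind between them, was searched on both strands. It was found in 2 of the 50 member promoters (4%) against 0.0657% of all promoters and 0.188% of those of genes tested on the arrays. Both genes work in the endoplasmic reticulum: Hspa5 (BiP) is its HSP70, and Dnajc3 (p58IPK) is one of its DNAJ proteins and an inhibitor of the kinase PERK. The other member promoters did not hold the element, among them those of Dnajb9 and Dnajc16, also J proteins of the endoplasmic reticulum. Hspa13, Dnajb11, Dnajb14, Dnajc10 and Dnajc14 were likewise without it. Capitals mark the fixed letters of the element in the windows of Hspa5 (chr3:38452916-38453015, plus strand) and Dnajc3 (chr15:102432517-102432616, plus strand).
Hspa5, 100 to 1 bases before the start: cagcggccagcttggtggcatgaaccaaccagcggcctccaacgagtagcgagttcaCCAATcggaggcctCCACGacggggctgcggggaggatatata
Dnajc3, 150 to 51 bases before the start: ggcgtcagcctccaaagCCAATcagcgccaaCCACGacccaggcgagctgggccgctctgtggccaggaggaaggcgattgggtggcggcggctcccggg

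The depth of the arrays and their departures are given once. Between 10440 and 11565 probes per array had a detection p below 0.05, and 10457 probes passed the same detection filter and were tested. Adult replicate 4 stood apart: its mean correlation with the other arrays was 0.973, against 0.984 or more for the remaining 16 arrays. It was the highest or the lowest of the 5 adults for 41 of the 57 members (71.9%) and for 68.7% of all tested probes, so that the aged against adult difference of a member described singly is also given without it wherever leaving it out turned the sign or moved the value by about 1.5 times or more. Of the markers of neurons and nerve terminals 0 of 11 tested genes passed the test between aged and adult rats. Of these 11, 3 lay above 0 (Snap25 at 0.02 on the log2 scale), and their median log2 difference was -0.07. Of 8 tested astrocyte markers 1 was higher in aged rats (median 0.00), as was 1 of 8 tested oligodendrocyte markers (median 0.06), and 0 were lower. Of the 12 tested microglial markers 4 were higher in aged rats and all 12 lay above 0 (median log2 difference 0.53), and the list's mean log2 intensity ranged from 8.44 to 8.66 in adults, 9.07 to 9.27 in Intact and 8.82 to 10.6 in Impaired rats. All 12 had passed the detection filter. In bulk RNA a change in the share of a cell type and a change in RNA per cell cannot be told apart, and the part of microglia in the member values was not tested. All values below are log2 intensities after background correction and quantile normalisation, and probes of different genes are not ranked against each other.

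The question was first whether chaperone transcripts differed between synaptosomes of adult and aged rats. None of the 57 members passed the test in aged against adult rats (limma, Benjamini-Hochberg adjusted p below 0.05), where 1.05% of all 10457 tested probes did. At an unadjusted p below 0.05 there were 9 members (15.8%), against 18.4% of all probes, with 4 higher (7.77% of all probes) and 5 lower (10.6%). The members' log2 differences ranged from -0.34 (Dnajc2) to 0.39 (Hsp90aa1) with a median of -0.03, beside -0.02 for all tested probes, and 4 members (7.02%) differed by more than 1.2-fold, against 11.2% of all probes. With median scaling in place of quantile normalisation the members' median was 0.06, as was that of all probes. No member had all aged arrays above or all below the adults, which was the case for 0.593% and 0.325% of all probes. The median half-width of the members' 95% intervals was 0.18, and 29 intervals lay wholly within 1.2-fold in either direction. Without adult replicate 4 none was called, 53 of all probes were, and the members' median was -0.01 beside -0.02 for all probes.

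**Figure D1:**
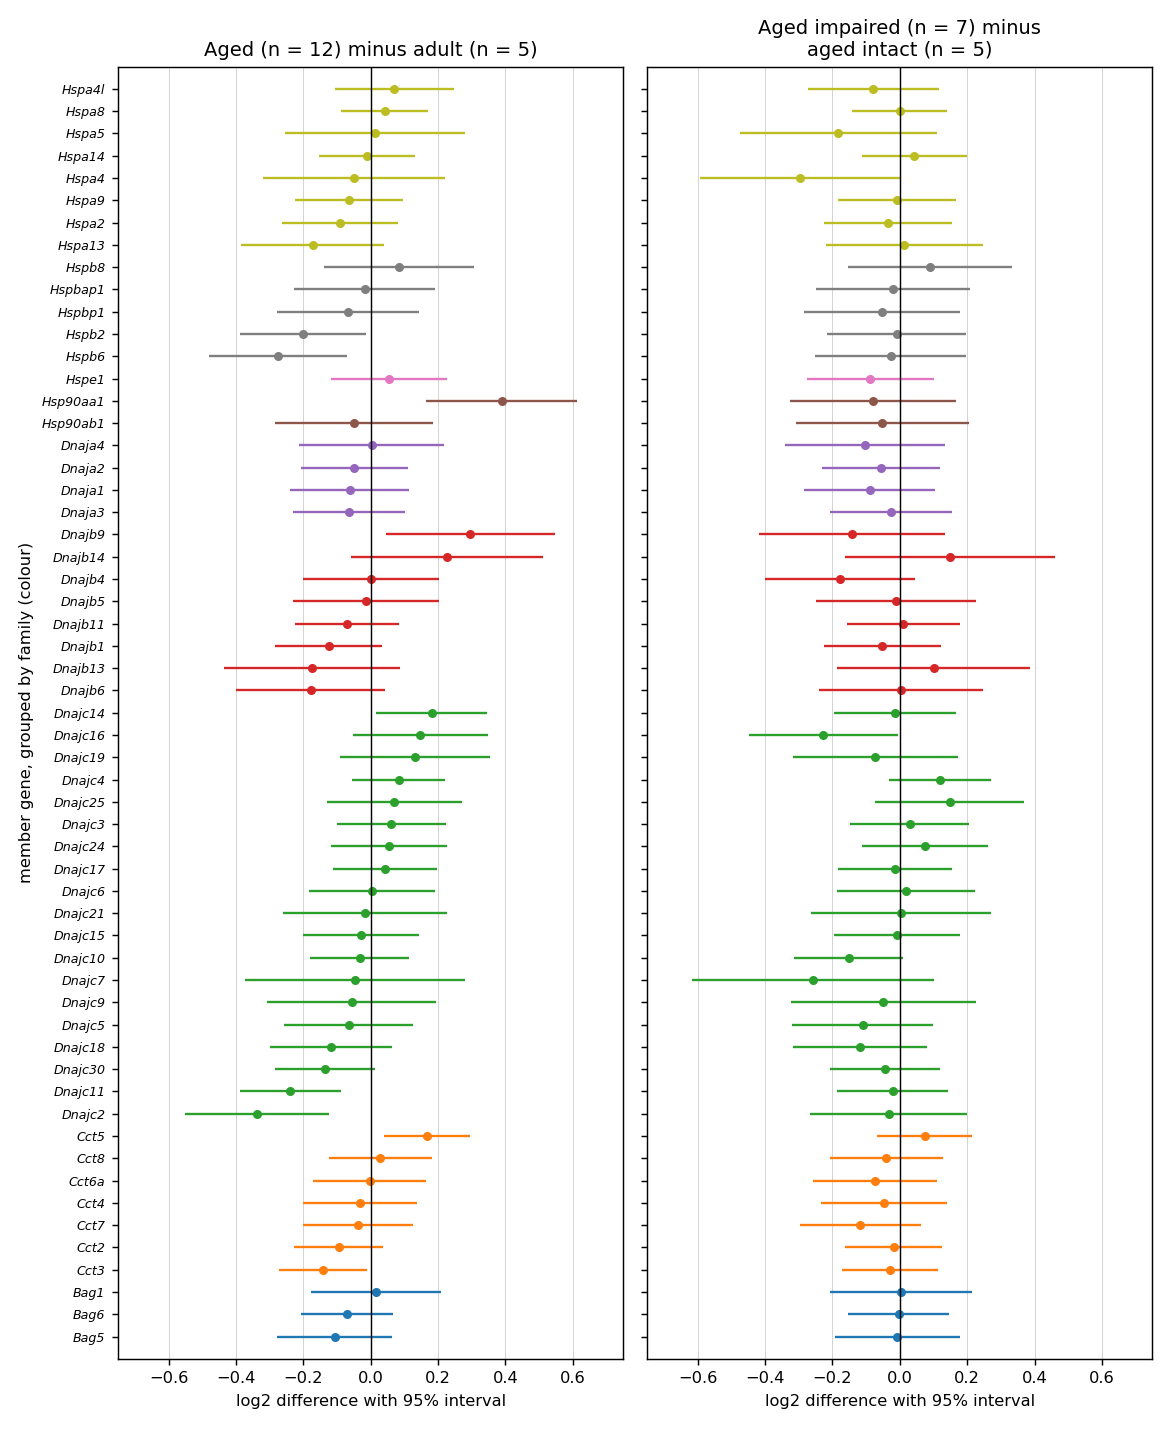
Log2 difference of each of the 57 member genes with its 95% interval (limma), aged minus adult rats on the left and aged impaired minus aged intact rats on the right. Genes are grouped and coloured by family. On the left Hsp90aa1 lies farthest above 0 (0.39) and Dnajc2 farthest below (-0.34), and on the right 42 of 57 points lie below 0.

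Hsp90aa1, the stress-inducible cytosolic HSP90 (chr6:135523604-135529687, GRCr8), had the largest difference among members. Its log2 intensities in adult replicates 1 to 5 were 12.38, 12.21, 12.15, 11.73 and 12.14. In the Intact rats they were 12.50, 12.50, 12.24, 12.75 and 12.77. The 7 Impaired rats ranged from 12.26 to 12.79 with a median of 12.49. Of the 12 aged arrays 8 lay above the highest adult, and the groups overlapped because adult replicate 1 lay above the lower aged arrays. The log2 difference was 0.39 (SE 0.11), a 1.31-fold higher level in aged rats, with an adjusted p of 0.0786 (limma), which misses the threshold. It was 0.43 in Intact (adjusted p = 0.162) and 0.35 in Impaired rats (adjusted p = 0.151). Adult replicate 4 was the lowest array of all, and without it the difference was 0.29 (adjusted p = 0.254, limma).

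Hsp90ab1, the constitutive cytosolic HSP90, is usually among the most abundant brain transcripts, yet its member probe was dim. The log2 intensities were 5.27, 5.15, 5.23, 5.79 and 5.25 in adults and 5.20, 4.96, 5.73, 5.31 and 5.36 in Intact rats, and the Impaired rats ranged from 5.07 to 5.46 with a median of 5.33. The probe was detected on 4 of the 5 Intact arrays, and a further probe of the gene was detected on 0 of 17. The log2 difference between aged and adult rats was -0.05 (95% interval -0.28 to 0.19), turning to 0.06 without adult replicate 4. The endoplasmic reticulum HSP90 gene, Hsp90b1, had no probe under that name and was not analysed here.

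**Figure D2:**
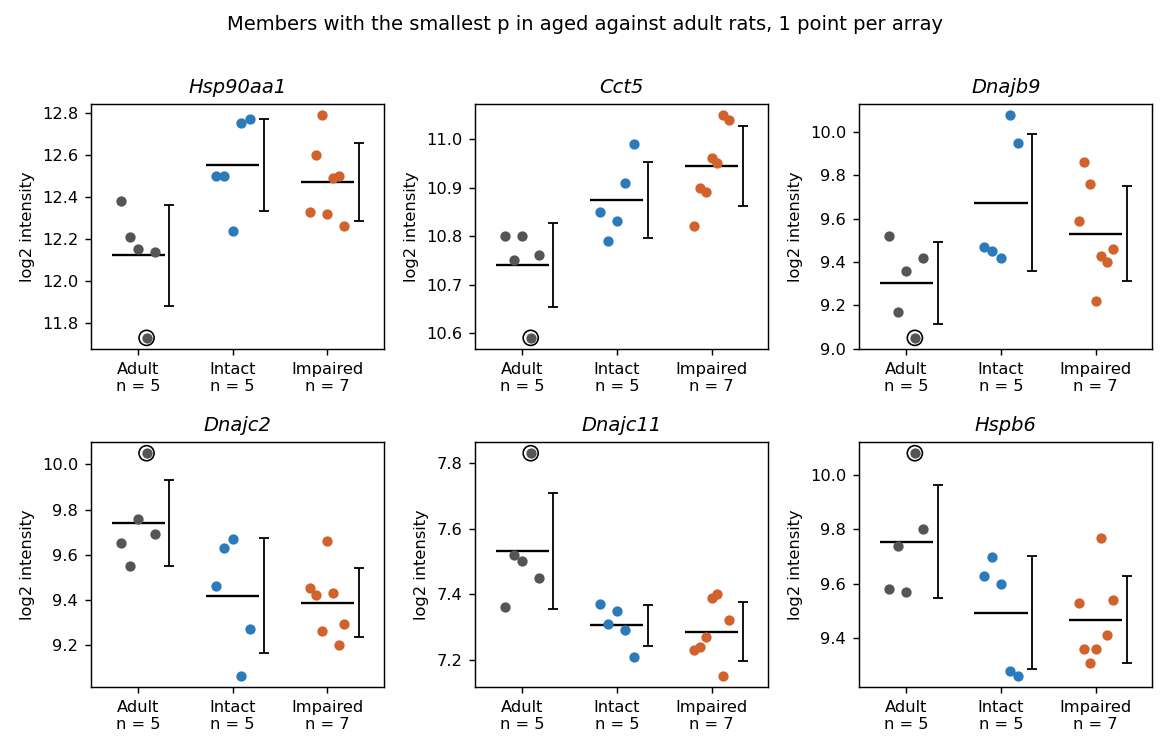
Log2 intensity of 6 members by group, 1 point per array (Adult n = 5, Intact n = 5, Impaired n = 7), with the group mean as a horizontal line and 1 SD as the bar at its side. The ringed point is adult replicate 4, which is the lowest adult for Hsp90aa1, Cct5 and Dnajb9 and the highest for Dnajc2, Dnajc11 and Hspb6.

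The HSP70 family had 8 members of 11 genes with a probe, and 0 of the 8 passed. Hspa8, the constitutive HSC70 of clathrin uncoating, varied little: the adults read 13.73, 13.70, 13.75, 13.49 and 13.75, the Intact rats 13.71, 13.65, 13.71, 13.75 and 13.79, and the Impaired rats 13.58 to 13.80 with a median of 13.71. It had the smallest spread within groups of all members after quantile normalisation (residual SD 0.0836 on the log2 scale). The log2 difference was 0.04 (95% interval -0.09 to 0.17), turning to -0.01 without adult replicate 4. Across 28 fits, with other processing or arrays left out, this difference ranged from -0.01 to 0.32. Every array but adult replicate 4 lay between 13.58 and 13.80.

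Hspa5, the HSP70 of the endoplasmic reticulum, varied more. The adults read 12.36, 12.77, 12.79, 13.03 and 13.13, the Intact rats 12.91, 12.83, 12.71, 13.04 and 13.13, and the Impaired rats 12.37 to 13.20 with a median of 12.63. The groups overlapped almost wholly, and the log2 difference between aged and adult rats was 0.01 (95% interval -0.25 to 0.28), and 0.07 without adult replicate 4. Hspa9, the mitochondrial HSP70 mortalin, read 11.85, 11.59, 11.69, 11.74 and 11.74 in adults and 11.51, 11.69, 11.55, 11.67 and 11.86 in Intact rats, with 11.40 to 11.84 in Impaired rats. Its log2 difference was -0.06 (95% interval -0.22 to 0.10). Hspe1, the HSP10 lid of the mitochondrial chaperonin whose promoter held the run of 4 units, ranged from 8.58 to 9.01 in adults, 8.69 to 8.98 in Intact and 8.57 to 8.90 in Impaired rats, with a log2 difference of 0.05 (95% interval -0.12 to 0.23) and of 0.01 without adult replicate 4.

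Hspa13, a microsomal HSP70, had the largest difference of the family, -0.17 (adjusted p = 0.371, limma), and adult replicate 4 (10.82) was its highest array, without which it was -0.06. Hspa2, an HSP70 first known from testis, gave -0.09 (adjusted p = 0.566) and, without that array, -0.04. Hspa4, an HSP110-type exchange factor, gave -0.05 (adjusted p = 0.862), turning to 0.11 without it. The inducible HSP70 probe that was annotated, Hspa1b, was detected on 0 of 17 arrays, as was Hsph1 (HSP110), which is also heat-inducible. Hspa1a, Hspd1 (HSP60) and Bag3 had no probe under those names and were not analysed here.

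**Figure D3:**
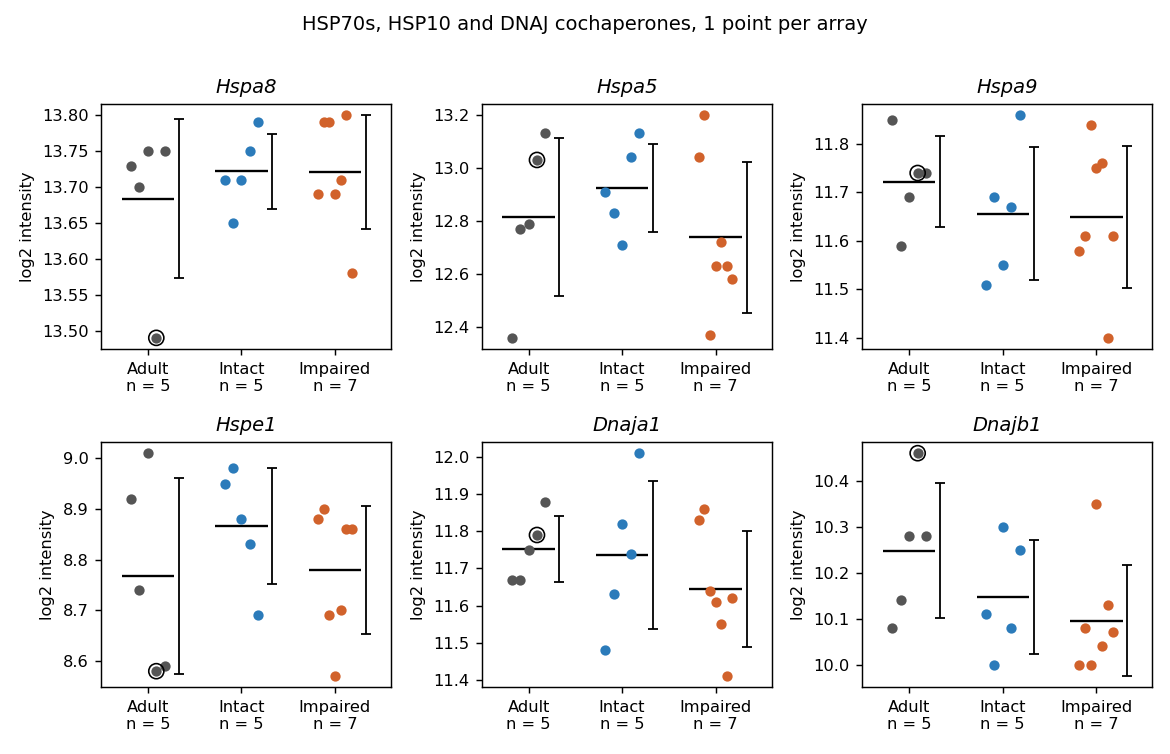
Log2 intensity of 4 HSP70 and HSP10 genes and 2 DNAJ cochaperones by group, 1 point per array (Adult n = 5, Intact n = 5, Impaired n = 7), with the group mean as a line and 1 SD as the bar. The ringed point is adult replicate 4. The groups overlap in all 6 panels, and apart from adult replicate 4 Hspa8 stays between 13.58 and 13.80.

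The DNAJ proteins gave 31 members, and 0 of them passed. Dnajc2 (MPP11 or zuotin, a ribosome-bound J protein; chr4:14162490-14189662) read 9.65, 9.55, 9.76, 10.05 and 9.69 in adults. In Intact rats it read 9.46, 9.63, 9.67, 9.06 and 9.27, and in Impaired rats 9.20 to 9.66 with a median of 9.42. Of the 12 aged arrays 9 lay below the lowest adult. Its log2 difference was -0.34 (SE 0.10, adjusted p = 0.0973, limma), and -0.26 without adult replicate 4, the highest array (adjusted p = 0.311).

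Dnajc11, a J protein of the mitochondrial inner membrane organising complex (chr5:167724776-167770032), read 7.36, 7.52, 7.50, 7.83 and 7.45 in adults. The Intact rats read 7.37, 7.31, 7.35, 7.29 and 7.21, and the Impaired rats 7.15 to 7.40 with a median of 7.27. Again 9 of 12 aged arrays lay below the lowest adult, and again the highest array was adult replicate 4. This amounted to a log2 difference of -0.24 (SE 0.07, adjusted p = 0.0965, limma), and -0.16 without that array (adjusted p = 0.311). With no normalisation between arrays it was 0.04, beside a median of 0.22 over all probes.

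Dnajb9 (ERdj4), a J protein of the endoplasmic reticulum that holds the stress sensor IRE1 in check, read 9.52, 9.17, 9.36, 9.05 and 9.42 in adults. In the Intact rats it read 9.47, 9.45, 9.42, 10.08 and 9.95, and in the Impaired rats 9.22 to 9.86 with a median of 9.46. Intact replicates 4 and 5 were the highest arrays of all 17, and 5 of the 12 aged arrays lay above the highest adult. Aged minus adult, the log2 difference was 0.30 (SE 0.12, adjusted p = 0.202, limma), and 0.23 without adult replicate 4 (adjusted p = 0.502). The same pair of Intact arrays was also the highest of its group for Hsp90aa1 and the lowest for Dnajc2 and Hspb6.

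The other DNAJ members examined one by one gave log2 differences between -0.18 and 0.23 for aged against adult rats. Dnajc14, a J protein that helps receptors out of the endoplasmic reticulum, gave 0.18 (adjusted p = 0.230, limma), with 6 aged arrays above the highest adult, and 0.11 without adult replicate 4 (adjusted p = 0.611). Dnajb14 gave 0.23 (adjusted p = 0.377), of which 0.07 was left without adult replicate 4, the lowest array at 7.68. Dnajb6, a suppressor of polyglutamine aggregation, gave -0.18 (adjusted p = 0.373) and -0.08 without that array. Dnajb1 (HSP40), the main cytosolic partner of HSP70 and a heat shock factor target, had a median of 10.28 in adults (10.08 to 10.46), 10.11 in Intact and 10.07 in Impaired rats, with a log2 difference of -0.12 (adjusted p = 0.385) and of -0.07 without adult replicate 4. Dnaja1, Dnaja2 and Dnaja3, cytosolic partners of HSC70 and, for Dnaja3, the mitochondrial partner of mortalin, gave -0.06, -0.05 and -0.06, and Dnaja2 turned to 0.01 without adult replicate 4. Of the synaptic J proteins, Dnajc5 (cysteine string protein) gave -0.07 (95% interval -0.26 to 0.13) and Dnajc6 (auxilin) 0.00 (95% interval -0.18 to 0.19). Without adult replicate 4 they gave -0.02 and -0.03. Dnajc5 was dim, with log2 intensities between 6.03 and 6.59. Dnajc3, shown above for its ER stress element and picked for it, gave 0.06 (adjusted p = 0.699).

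The CCT chaperonin had 7 members of 8 genes with a matching name, and its subunits, which assemble in equal numbers, lay on both sides of 0, with 2 above and 5 below and a median log2 difference of -0.03 between aged and adult rats. Cct5 (chr2:84302621-84313773) read 10.80, 10.75, 10.80, 10.59 and 10.76 in adults, 10.85, 10.79, 10.83, 10.91 and 10.99 in Intact rats, and 10.82 to 11.05 with a median of 10.95 in Impaired rats. All aged arrays but Intact replicate 2 lay above the highest adult. The log2 difference was 0.17 (SE 0.06), yet the adjusted p was 0.159 (limma), and without adult replicate 4 the difference was 0.13 (adjusted p = 0.429). Cct3 went the other way, from 11.15, 11.25, 11.30, 11.50 and 11.35 in adults to 11.07 to 11.29 in Intact and 11.07 to 11.22 in Impaired rats, a log2 difference of -0.14 (SE 0.06, adjusted p = 0.237) and -0.09 without adult replicate 4 (adjusted p = 0.588). Cct2 and Cct7 gave -0.09 and -0.04, the second -0.08 without that array. Between unlike subunits the probes differ, so that only the direction of each difference is compared.

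The small heat shock proteins and their namesakes gave 5 members, 4 of them below 0. Hspb6 (HSP20; chr1:94934372-94936516) read 9.58, 9.74, 9.57, 10.08 and 9.80 in adults, 9.63, 9.70, 9.60, 9.28 and 9.26 in Intact rats, and 9.31 to 9.77 with a median of 9.41 in Impaired rats. Of the 12 aged arrays 8 lay below the lowest adult. The log2 difference was -0.27 (SE 0.10, adjusted p = 0.150, limma), and -0.19 without adult replicate 4 (adjusted p = 0.442). Hspb2, a small heat shock protein best known from muscle and dim here (4.94 to 5.64), gave -0.20 (adjusted p = 0.243) and -0.13 without adult replicate 4 (adjusted p = 0.604). It was detected on 5 of 5 Adult, 4 of 5 Intact and 6 of 7 Impaired arrays and so passed the detection filter only through the group where it was highest, which favours a lower value in aged rats. Hspb8 (HSP22), which works with Bag3 in clearing aggregates by autophagy, gave 0.08 (adjusted p = 0.702), and 0.13 without that array. The BAG family members Bag1, Bag5 and Bag6 gave 0.02, -0.11 and -0.07, and 0 of 3 passed. Without adult replicate 4 Bag1 gave 0.04 and Bag5 -0.02.

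**Figure D4:**
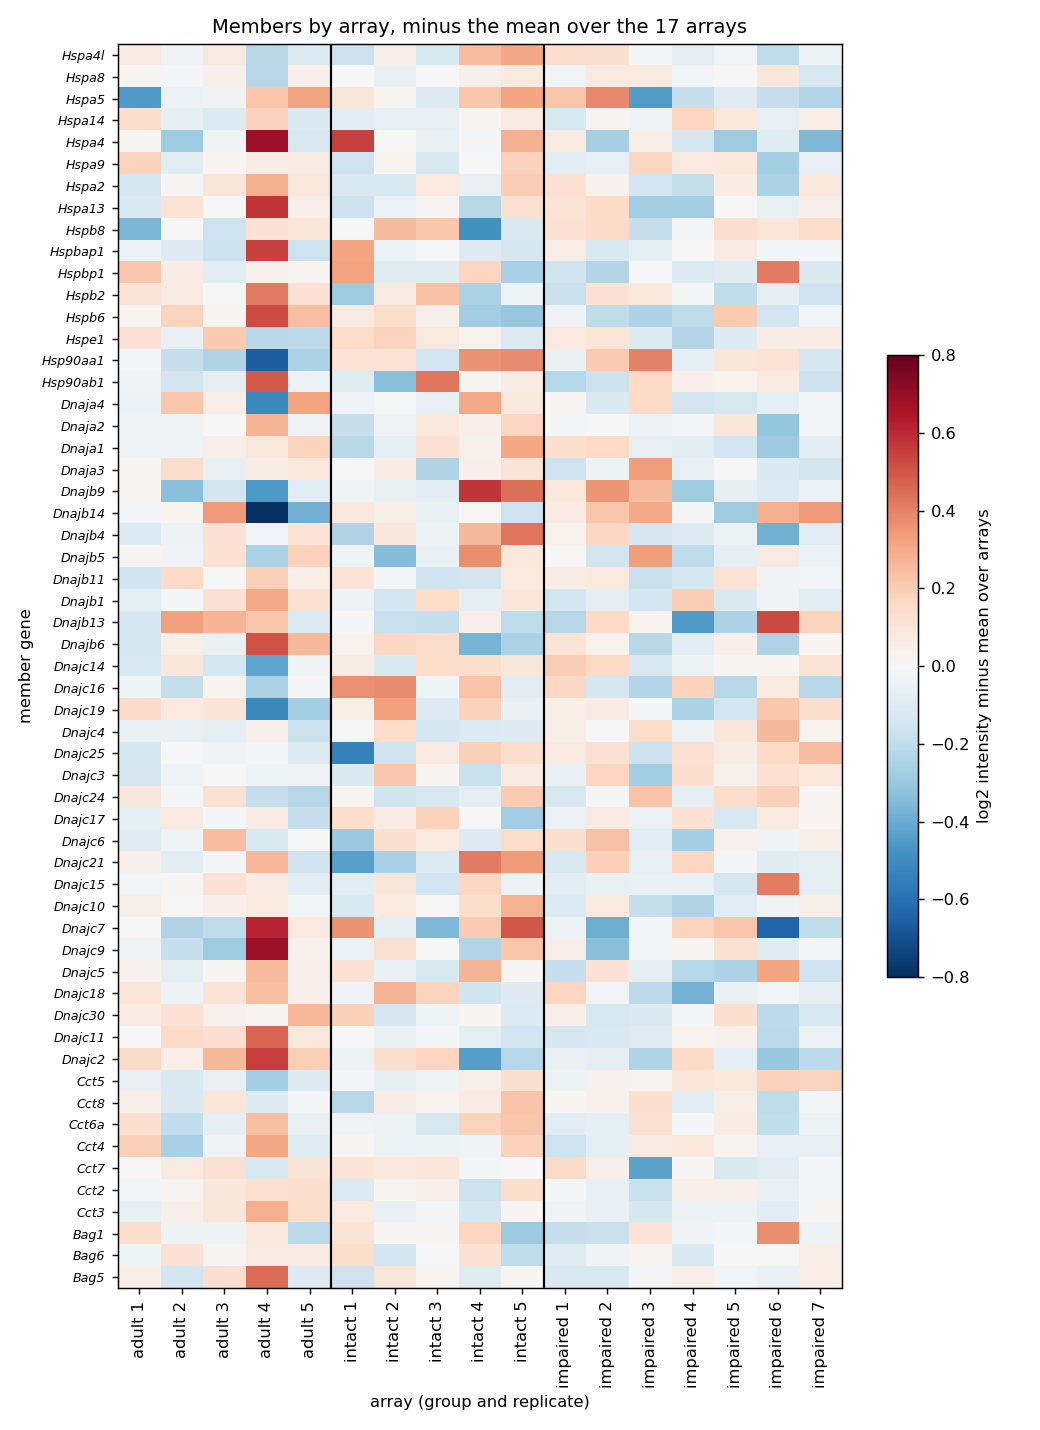
Log2 intensity of each of the 57 members on each of the 17 arrays, minus that gene's mean over the arrays (red above, blue below, colour scale from -0.8 to 0.8). The column of adult replicate 4 is the most strongly coloured: it was the highest or the lowest adult for 41 members.

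Levels were also set beside the promoter letters, as a description. The 12 members with at least 2 GAA and TTC units had a median log2 difference of -0.06 between aged and adult rats, with 4 above 0 and 8 below. The 37 members with a promoter but no such letters had a median of -0.02, with 15 above and 22 below, and 0 genes were called in either group. The promoters of Hsp90aa1, Dnajc2 and Dnajc11 were not matched.

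The aged groups were also set against adults on their own. Intact rats against adults gave 0 members called beside 0.373% of all probes, and Impaired rats against adults gave 0 beside 0.44%. These comparisons share the 5 adult arrays. At an unadjusted p below 0.05 there were 6 members (10.5%) in each, against 13.8% and 17.6% of all probes. Dnajc2 was -0.32 in Intact and -0.35 in Impaired rats, Dnajc11 was -0.23 and -0.25, and Cct5 was 0.13 and 0.20. The members' median was -0.01 in Intact and -0.07 in Impaired rats, beside -0.02 and -0.03 for all probes. Without adult replicate 4 it was 0.01 in Intact rats and -0.02 in Impaired rats, beside -0.01 and -0.02 for all probes, and with median scaling 0.05 and 0.06, beside 0.03 and 0.09.

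Impaired and Intact rats, which share age and slide, address whether chaperone transcripts differ with performance in the maze. None of the 57 members passed, and 0% of all tested probes did (limma). At an unadjusted p below 0.05 there was 1 member (1.75%), Dnajc16, against 3.47% of all probes. Dnajc16, a J protein of the endoplasmic reticulum, read 5.55, 5.56, 5.15, 5.41 and 5.09 in Intact and 4.95 to 5.36 with a median of 5.04 in Impaired rats, close to background. It was detected on 4 of 5 Adult, 5 of 5 Intact and 4 of 7 Impaired arrays, so that it passed the detection filter only through the Intact group, where it was highest, which favours a lower value in Impaired rats. The log2 difference was -0.23 (95% interval -0.45 to -0.01, adjusted p = 0.996, limma). Of the 57 members 15 (26.3%) lay above 0 and 42 below, against 49.9% of all probes above, and the median was -0.03 beside 0.00 for all probes. With median scaling it was 0.05 beside 0.07 for all probes. Members share arrays and are not replicates, so that this count carries no test. The largest difference in size was that of Hspa4, -0.29 (95% interval -0.59 to 0.00), with 6.04, 5.49, 5.44, 5.48 and 5.78 in Intact and 5.14 to 5.57 in Impaired rats. The Hspa4 probe was dim as well. Hspa8 differed by 0.00 (95% interval -0.14 to 0.14), Hsp90aa1 by -0.08 (95% interval -0.33 to 0.17) and Dnajb4, a cytosolic HSP40, by -0.18 (95% interval -0.40 to 0.04).

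Genes that work with the members but fall outside the naming rule were counted on the same fit for aged against adult rats. Of 13 tested cochaperones of HSP90 and HSP70, 0 passed in either direction, and the 2 with the smallest p were Ttc4 (0.27, adjusted p = 0.0930) and Unc45a (-0.28, adjusted p = 0.178). Of 7 tested prefoldin and chaperonin partners 0 passed. Tcp1, the remaining CCT subunit, gave 0.07. Of 2 tested heat shock factors and regulators 0 passed (Hsf2, 0.23, and Hsbp1, -0.12). The authors report the gene they list as Hsbp1 among those raised in both aged groups on these arrays. By quantitative PCR they also report it as higher in aged rats in synaptosomes and in the CA1 and CA3 subregions. The difference in direction from the value given here was not examined. Of 3 other small heat shock and mitochondrial chaperones 0 passed (Cryab, 0.20). In the endoplasmic reticulum folding and unfolded protein response list 1 of 15 rose and 0 fell. The gene that rose was Pdia3, the disulfide isomerase that works with calnexin and calreticulin and in MHC class I loading, with a mean log2 intensity of 9.81 ± 0.17 (SD, n = 5) in adults, 10.38 ± 0.21 (SD, n = 5) in Intact and 10.21 ± 0.24 (SD, n = 7) in Impaired rats and a log2 difference of 0.48 (adjusted p = 0.0407, limma). It stayed past the threshold in 14 of 28 fits. Leaving out any 1 adult, Intact replicate 1, 2 or 5, or Impaired replicate 2 or 7 ended the call (0.45 and adjusted p = 0.120 without adult replicate 4). So did median scaling, no normalisation between arrays and no detection filter (adjusted p = 0.0632, 0.0693 and 0.0622, limma), and the replicate block. Pdia4 gave 0.32 (adjusted p = 0.139), while Xbp1, Atf4 and Ddit3, the transcription factors of the response, gave 0.00, 0.01 and -0.09.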

How the data were processed

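Hippocampal synaptosome RNA of 17 rats was profiled on Illumina RatRef-12 arrays. The authors deposited non-normalised signal intensity and detection p-value columns per probe from GenomeStudio 1.0.6 (per the labels). A deposited normalised copy and the value table were not used. Columns of no sample numbered 0. Replicate numbers are those of the sample descriptions, not of the titles, and no label ties a number to a shared litter or day. The slide is the only batch the labels give.

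Signals were corrected with neqc (limma 3.58.1, R 4.3.3, offset 16), quantile normalised and taken to log2. For 221 probes (Dnajc4 among the members) the detection p was no whole multiple of the step set by the negative controls. They were left out of the background estimate, whose SD was then 7.46 to 15.8, against 120 to 225 with them. Probes were named from the platform annotation, updated by gene identifier (13151 of 13192). The 10457 probes detected on every array of at least 1 group were fitted with lmFit and eBayes over all 3 groups, aged being the mean of the Intact and Impaired coefficients, with Benjamini-Hochberg adjustment over all probes. The scripts were tested on simulated data. The number of arrays limits the precision, and p-values measure the spread between single rats. Which part of a transcript a probe reads was not used.

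The members and gene lists were chosen with earlier results of these data known. Named members were those past the threshold, in each family the 3 with the smallest p for age and the 1 for impairment, and 18 fixed names, which gave 33. In each list up to 2 genes of smallest p are named. Others (Dnajc3, and the further genes given for the factors, partners and unfolded protein response) were chosen for their role or after their values were seen. Alternatives changed background, scaling, filter, samples fitted, weights, replicate block and test, and left out each array.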

Additional observations from a re-analysis of the deposited data

Results flagged for a closer look

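For the 33 members named, each group of 5 or 7 arrays was searched for 1 array far from the rest (Dixon's test at 95%). Of 99 groups 8 held one, where 4.95 would be expected by chance. Adult replicate 4 lay below the other adults for Cct5 (10.59, the nearest being 10.75) and for Hspa8 (13.49, the nearest 13.70), and above them for Dnaja2 (12.27, the nearest 12.00) and Hsp90ab1 (5.79, the nearest 5.27). Among the aged rats, Dnaja2 was low on Impaired replicate 6 (11.69, the nearest 11.95), Dnaja3 was low on Intact replicate 3 (7.05, the nearest 7.29) and high on Impaired replicate 3 (7.62, the nearest 7.29), and Dnajb1 was high on Impaired replicate 4 (10.35, the nearest 10.13).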

How the results depend on the processing

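Over 28 fits 0 members were called in aged against adult, aged intact against adult or aged impaired against aged intact rats (smallest adjusted p 0.0545 for aged against adult and 0.786 for impaired against intact). In aged impaired against adult rats 1 was called with no normalisation between arrays, Hsp90aa1 (0.64, adjusted p = 0.0454), where the median of all probes was 0.25. The methods' test without adjustment called 2 members in each aged group against adults, Hsp90aa1 higher and Dnajc2 lower, and 0 after Benjamini-Hochberg. Of 1776 alternative values of the named members 171 had another sign. Where the unadjusted p was below 0.05 there were 3, all with no normalisation: Cct3 (0.08), Dnajc11 (0.04) and Hspb2 (0.12). None is counted as a reversed call, since no call was made in either setting.

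The count of all probes called in aged against adult, intact against adult and impaired against adult rats (110, 39 and 46) was 71, 23 and 108 with median scaling (in aged against adult rats 71 higher and 0 lower, against 84 and 26), 286, 88 and 219 with array weights and 26, 14 and 18 with the replicate block. With no normalisation it was 13 for intact and 364 for impaired against adult. The methods' test called 535, 591 and 56 probes in intact against adult, impaired against adult and impaired against intact, and 24, 22 and 1 after adjustment. The members' median in the order aged, intact, impaired against adult and impaired against intact was 0.0647, 0.0471, 0.0642 and 0.0547 with median scaling and 0.209, 0.182, 0.229 and 0.0856 with no normalisation, where all probes moved with it. For impaired against adult it was -0.0195 with array weights and -0.0246 with the background from all probes, an alternative chosen after seeing the data. The causes were not tested.

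Leaving out 1 array gave 39 (without adult replicate 5) to 140 probes called (without adult replicate 1) in aged against adult, 18 to 86 in intact against adult, 30 to 73 in impaired against adult and 0 to 1 in impaired against intact, and 0 to 0 members in each. The members' medians ranged from -0.0447 to -0.00696, -0.0281 to 0.00783, -0.0765 to -0.0243 and -0.0421 to -0.0191 in the same order, and adult replicate 4 set the upper end of the first 3. Same-numbered rats deviated together in some pairs only (correlations -0.322 to 0.258, above 0.1 in 5 of 15 pairs). Numbers 2 and 5 were positive in every pairing of groups and number 1 in none. This mixed check does not settle whether the numbers pair rats, and no label says that they do. The replicate block is therefore given above only as a count and, for Pdia3, as a call that ended. Slide and age cannot be told apart, and dim probes such as Hsp90ab1, Hspa4 and Dnajc16 lie near background.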

Other observations

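Immediate early genes, transcription factors and regulators that respond quickly to neuronal activity, were counted on the same fit. Of 9 tested 0 passed between aged and adult rats, and all 9 lay below 0, with a median log2 difference of -0.30. Arrays of the groups overlapped in the list's mean log2 intensity. It ranged from 8.07 to 8.50 in adults, 7.66 to 8.60 in Intact and 7.80 to 8.33 in Impaired rats. Of all tested probes 44.2% lay above 0, with a median of -0.02. The genes share arrays and are not replicates, so that this count carries no test. The 2 with the smallest p were Egr2 (-0.31, adjusted p = 0.0697, limma) and Egr1 (-0.22, adjusted p = 0.203).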
